A study of Homo sapiens with 24 samples.

Results

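Mitochondrial DNA carries its own small set of messenger RNAs, and 10 of them, COX1, COX2, COX3, CYTB, ATP6, ND1, ND2, ND4, ND5 and ND6, were followed here in SKBR3 cells, a HER2-amplified breast cancer line. The 10 were chosen by name as rows of the read-count table, in which they stand under NCBI symbols without the MT- prefix, and they are 10 of its 14493 genes. COX2 is therefore subunit 2 of cytochrome c oxidase and not the prostaglandin enzyme PTGS2. All 10 passed the filter on low counts in every comparison. The table also holds the other 3 protein-coding genes of mitochondrial DNA, ND3, ND4L and ATP8, and the rRNAs RNR1 and RNR2.

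The study asked how therapy-induced senescence (TIS) brought on by blocking fatty acid synthesis differs from TIS brought on by other agents, and measured mRNA by RNA-seq in 8 groups of 3 libraries. Senescence was induced with ND-646, an inhibitor of acetyl-CoA carboxylase, at 250 nmol/L, or with TVB-3166, an inhibitor of fatty acid synthase, at 250 nmol/L. In the paper, a minority of SKBR3 cells stained for SA-β-gal, a senescence marker, with either inhibitor at this dose refreshed on day 3. The bulk libraries may thus mix senescent and other cells. The other TIS inducers were bleomycin, which breaks DNA strands, at 10 µmol/L, alisertib, an Aurora A kinase inhibitor, at 500 nmol/L, doxorubicin, an anthracycline that poisons topoisomerase II, at 10 nmol/L, and palbociclib, a CDK4/6 inhibitor, at 1 µmol/L. Each was given for 7 days with refeeding on day 3, and untreated proliferating cells were taken at day 0 and at day 7. The labels name no refeeding for the untreated day-7 cells. All samples are 1 cell line in culture, and nothing in the labels says whether replicates came from separate cultures, so p-values measure only the spread between these libraries, which may be technical. Of 11 marker genes of SKBR3 cells 10 were in the table, led by ERBB2 at 5120 to 8830 CPM (counts scaled to a common library total with TMM factors), whereas COL1A1, VWF and CD68 were the 3 of 10 markers of other cell types that were there.

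The mitochondrial genome is transcribed from both strands as long polycistronic RNAs that are cut, largely at the tRNAs between the genes, into mature RNAs. The RNA polymerase POLRMT and the factors TFAM and TFB2M start transcription, LRPPRC with SLIRP keeps the mRNAs stable, and mitochondrial ribosomes translate them. Each of the proteins sits beside nuclear-encoded partners in the inner membrane. ND1, ND2, ND4, ND5 and ND6 are core subunits of complex I (NADH dehydrogenase), CYTB is the cytochrome b of complex III, COX1, COX2 and COX3 form the core of complex IV (cytochrome c oxidase), and ATP6 is part of the proton channel of ATP synthase. 9 of the 10 mRNAs lie on 1 strand and ND6 alone on the other, and in human cells the ND6 mRNA, unlike the others, lacks a poly(A) tail.

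The 3′ ends of the coding sequences are shown because several of these mRNAs carry no complete stop codon in the DNA, so that polyadenylation has to finish it. Positions are those of the GENCODE annotation on GRCh37, whose chromosome M has 16569 bases. Of the 10 members, 5 (COX1, COX2, ATP6, ND5 and ND6) end in a full last codon and 5 (COX3, CYTB, ND1, ND2 and ND4) end in 1 or 2 left-over bases. The last 18 bases of 6 members are given 5′ to 3′ on the coding strand, with the last codon, or the left-over bases that stand in its place, in capitals.
COX2, chrM:8252-8269, plus strand: cccgtatttaccctaTAG
ND5, chrM:14131-14148, plus strand: ctactcctaatcacaTAA
ND6, chrM:14149-14166, minus strand: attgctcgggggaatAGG
ND1, chrM:4245-4262, plus strand: cattccccctcaaaccTA
ND2, chrM:5494-5511, plus strand: ttatactaataatcttaT
COX3, chrM:9973-9990, plus strand: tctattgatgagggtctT
ND5 and ND6 meet end to end on opposite strands, at 14148 and 14149. Whether the deposited counts used the strand of the reads is not given in the sources used here, so that reads of ND6 and reads of RNA from the opposite strand of the same stretch cannot be told apart. ATP6 overlaps ATP8 by 46 bases and COX3 by 1 base, and ND4 overlaps ND4L by 7 bases, which leaves the counts of these genes uncertain there.

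The 10 mRNAs together took between 1.12% and 9.37% of all counts of a library, in libraries of 29405121 to 44316330 counts. In untreated day-0 cells the share was 7.36%, 1.12% and 1.38% in replicates 1, 2 and 3. Replicate 1 of the day-0 cells thus stood far above the others and ranked 3 among all 24 libraries. In untreated day-7 cells the share was 2.69%, 1.12% and 1.26%, again with replicate 1 highest. It was 5.63%, 4.99% and 4.84% in ND-646 cells and 4.33%, 3.41% and 3.23% in TVB-3166 cells. Each ND-646 library lay above each TVB-3166 library, and each TVB-3166 library above each untreated day-7 library. Bleomycin gave 9.37%, 7.75% and 6.21%, and doxorubicin 5.28%, 5.05% and 3.72%. Alisertib gave 3.55%, 2.08% and 2.61%, and palbociclib 2.88%, 1.62% and 3.14%, so both overlapped the untreated day-7 libraries.

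Ordered by their medians, the groups ran from bleomycin through doxorubicin, ND-646, TVB-3166, palbociclib, alisertib and untreated day-0 to untreated day-7 cells. Bleomycin did not overlap doxorubicin, ND-646 did not overlap TVB-3166 and TVB-3166 did not overlap palbociclib. All other neighbours in that order overlapped. The means were 7.78% ± 1.58 (SD, n = 3) for bleomycin, 5.15% ± 0.42 for ND-646, 4.68% ± 0.84 for doxorubicin, 3.66% ± 0.59 for TVB-3166, 2.75% ± 0.75 for alisertib, 2.54% ± 0.81 for palbociclib, 1.69% ± 0.87 for untreated day-7 and 3.28% ± 3.53 for untreated day-0 cells. Replicate 1 was the highest library in 7 of the 8 groups, palbociclib being the exception, and CYTB, ND1, ND2 and ND4 were highest in replicate 1 in all 8. What the number 1 marks is not given in the labels, and its part was examined only through fits without these libraries and fits with the number as a block. In bulk RNA, fewer cells with a given content and less of this RNA per cell cannot be told apart.

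**Figure D1:**
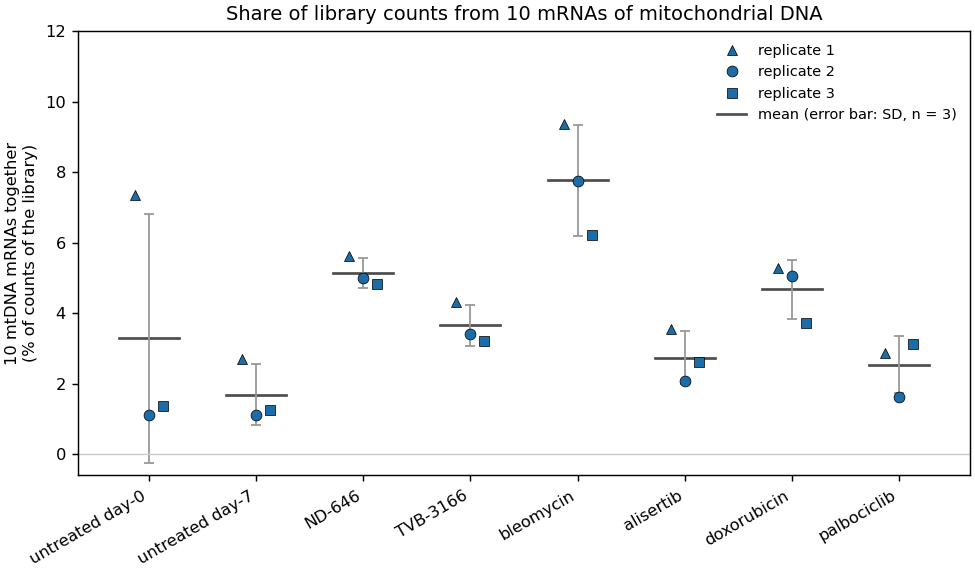
The vertical axis shows the percentage of all counts of a library that came from the 10 mRNAs, for the 3 libraries of each of 8 groups (triangles, replicate 1; circles, replicate 2; squares, replicate 3), with the mean and SD. Replicate 1 of the untreated day-0 cells sits at 7.36% against 1.12% and 1.38%, and bleomycin has the highest mean, 7.78%.

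Per length, the order of the members was similar in all libraries. COX1, the catalytic subunit of complex IV, had a median of 7914 CPM per kilobase and ranked 1 or 2 in every library, and ND4 followed with a median of 6365. COX2, which takes up electrons from cytochrome c, had a median of 3778 CPM per kilobase but ranged from 1109 to 17274 and held any place from rank 1 to rank 5. ATP6 (2855), COX3 (2546), CYTB (1671), ND5 (1476) and ND2 (1238) came next. ND1 was always ranked 9, with a median of 638 CPM per kilobase, and ND6 always ranked 10, with a median of 403.

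Against untreated day-0 cells, the reference of the study, few of the mRNAs passed the test because replicate 1 of that group spread them so widely. COX1 was at 27059, 4236 and 4643 CPM in the 3 day-0 libraries, and the other members showed the same pattern. COX2 was at 4089, 774 and 846 CPM in day-0 cells and at 11816, 6209 and 6455 CPM in ND-646 cells, so the groups did not overlap, as for 51.8% of all genes. It was higher in ND-646 cells by 2.08 on the log2 scale (SE 0.63, edgeR quasi-likelihood test, adjusted p = 0.0301) and was the only member called among 10, where 19.1% of the 13604 genes tested were called higher and 18.8% lower. Without replicate 2 or without replicate 3 of the day-0 cells no member was called in ND-646 cells (12.2% and 13.1% of genes higher). With bleomycin 2 of 10 were called higher, COX2 (log2 fold change 1.92, SE 0.57, adjusted p = 0.0193) and ND6 (1.70, SE 0.61, adjusted p = 0.0405), against 24.1% of genes higher and 25.3% lower. Leaving out bleomycin replicate 1, 2 or 3 left 1 call each (24%, 19.7% and 19.9% of genes), and leaving out replicate 2 or 3 of the day-0 cells left 0 (19.2% and 21%).

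No member was called in the other comparisons with day-0 cells by edgeR or by DESeq2, and none had an unadjusted p under 0.05. These were TVB-3166 (27.4% of genes higher, 27.7% lower), alisertib (17.7% and 19.6%), doxorubicin (23.7% and 24.8%), palbociclib (26% and 27.2%) and untreated day-7 cells (0.389% and 0.198%). The median log2 fold changes of the members were 0.66 for ND-646, 0.05 for TVB-3166, 0.98 for bleomycin, -0.42 for alisertib, 0.46 for doxorubicin, -0.42 for palbociclib and -1.15 for untreated day-7 cells, beside medians of all genes between -0.01 and 0.02.

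Replicate 1 of the day-0 cells decided these values. Without it, 10 of 10 members were called higher with ND-646 (13.7% of genes), TVB-3166 (27%), bleomycin (21.9%) and doxorubicin (23.7%), 9 with alisertib (18.9%) and 6 with palbociclib (25.7%). The medians then became 2.11, 1.45, 2.49, 1.74, 1.04 and 0.98 in that order of treatments. The untreated day-7 cells turned from a median of -1.15 to 0.37 with 10 of 10 members positive, and 0 members were called (0.393% of genes higher). In the other direction, leaving out replicate 2 or 3 of the day-0 cells called 3 or 2 members lower with palbociclib (23% and 26.1% of genes). The direction of the median change against day-0 cells is thus set by 1 library for alisertib, palbociclib and untreated day-7 cells. With all libraries, 9, 6, 8 and 6 of 10 members were positive with ND-646, TVB-3166, bleomycin and doxorubicin, so that library also set the sign of single members there.

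Untreated day-7 cells, cultured as long as the treated cells, varied less, and against them all 10 mRNAs had positive log2 fold changes in all 6 treated groups. When 1 library was left out, up to 4 of them turned negative with palbociclib and up to 2 with alisertib, and none with the other 4 agents. These 6 comparisons share the same 3 control libraries, whose labels, unlike those of the treated cells, name no refeeding. Effects of the agents and of refeeding cannot be told apart there. With ND-646, 9 of 10 were called higher (17.2% of 13704 genes), with a median log2 fold change of 1.79 beside 0.02 for all genes. With TVB-3166, 9 of 10 were called (25.4%), with a median of 1.07. All 10 were called with bleomycin (22.4%, median 2.07) and with doxorubicin (21.9%, median 1.40). With palbociclib 3 of 10 were called (22%, median 0.58), namely COX2, ND4 and ND5. With alisertib edgeR called 0 of 10 (9.55% of genes) at a median of 0.68, DESeq2 also called 0, 5 had an unadjusted p under 0.05, and the smallest adjusted p was 0.0547 for ND5. No member was called lower, where the shares of genes called lower were 17.1%, 26.1%, 23.2%, 21.5%, 22.9% and 9.49% for ND-646, TVB-3166, bleomycin, doxorubicin, palbociclib and alisertib. In the same order, 10, 5, 10, 8, 0 and 0 members had no overlap between treated and day-7 libraries. Among all genes tested this held for 50.8%, 59.5%, 57%, 54%, 54.7% and 37.8%, so the count with TVB-3166 was below that share.

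DESeq2 called fewer members than edgeR in several of these comparisons, 0 with palbociclib (21.8% of genes higher), 5 with TVB-3166 (25.2%) and 6 with doxorubicin (21.6%).

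The alisertib libraries carry the same replicate numbers as the day-7 libraries and deviated from their group means together with them (correlations of 0.16, 0.229 and 0.114 for numbers 1, 2 and 3). With the number as a block, 9 of 10 members were called higher with alisertib (15.3% of genes). Without replicate 1 of the day-7 cells 10 were called with alisertib (7.57% of genes) and 7 with palbociclib (19.2%), and without alisertib replicate 2, 1 was called (5.49%). The palbociclib calls fell to 0 without replicate 2 or 3 of the day-7 cells (21.4% and 17.2%) and without palbociclib replicate 1 or 3 (19.4% and 17.2%), and were 5 without palbociclib replicate 2 (20.3%). The count with TVB-3166 was 5 without replicate 2 or 3 of the day-7 cells (24.7% and 20.1%) or without TVB-3166 replicate 1 (24%). Without replicate 3 of the day-7 cells it was 5 with ND-646 (9.15%) and 6 with bleomycin (15%).

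**Figure D2:**
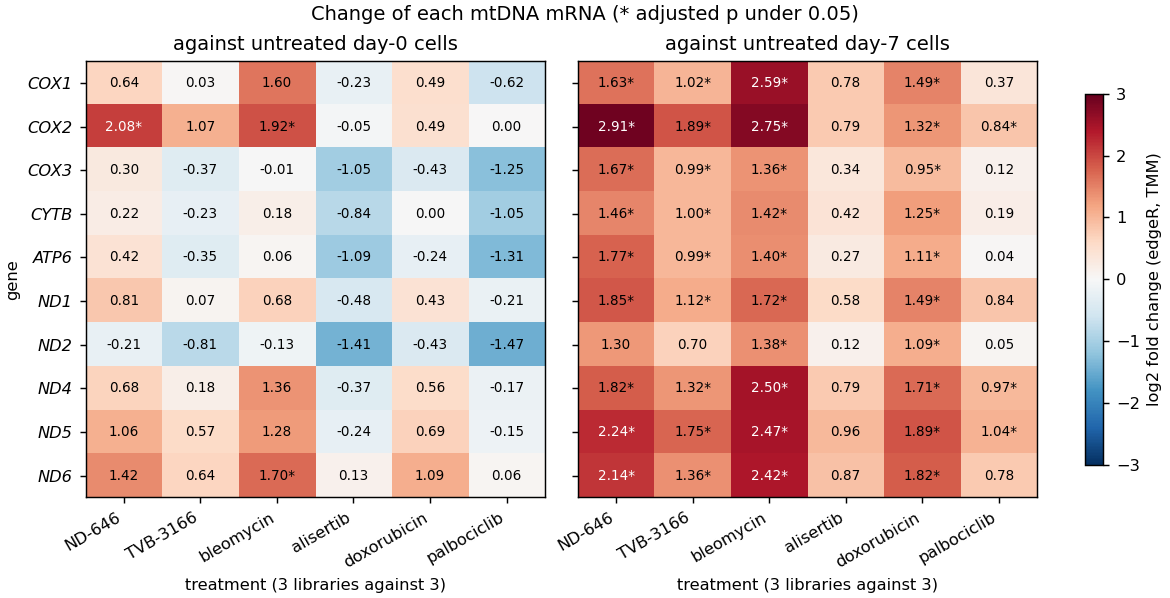
Each cell gives the log2 fold change of 1 mRNA (rows) in 1 treatment (columns) from edgeR with TMM scaling, 3 libraries against 3, with red for higher and blue for lower than untreated cells and an asterisk for an adjusted p under 0.05. Against day-0 cells (left) 3 cells carry an asterisk, and against day-7 cells (right) all values are above 0, with the largest, 2.91, for COX2 with ND-646.

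Among the subunits of complex IV, COX2 had the largest log2 fold change with each treatment but doxorubicin, where COX1 had 1.49. It was at 1694, 764 and 758 CPM in untreated day-7 cells. It stood at 11816, 6209 and 6455 CPM in ND-646 cells, a log2 fold change of 2.91 (SE 0.41, adjusted p = 0.00123). In TVB-3166 cells it was at 4774, 3585 and 3581 CPM, higher by 1.89 (SE 0.27, adjusted p = 0.000188). No library of either lipogenesis inhibitor overlapped the day-7 libraries, which also held for 50.8% of all genes with ND-646 and 59.5% with TVB-3166. With bleomycin COX2 was at 8955, 7288 and 5203 CPM (log2 fold change 2.75, SE 0.34, adjusted p = 0.000368) and with doxorubicin at 2770, 3177 and 1974 CPM (1.32, SE 0.27, adjusted p = 0.00223). It was at 1970, 1352 and 2397 CPM with palbociclib and overlapped the day-7 cells there (0.84, SE 0.29, adjusted p = 0.0375). With alisertib it was at 2278, 1475 and 1762 CPM and did not pass the test (0.79, SE 0.27, adjusted p = 0.0648).

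COX1 was at 9173, 4406 and 4539 CPM in day-7 cells and reached its highest level with bleomycin, 44503, 36172 and 27415 CPM (log2 fold change 2.59, SE 0.31, adjusted p = 0.000337). It was at 22224, 17739 and 16422 CPM with ND-646 (1.63, SE 0.33, adjusted p = 0.00634) and at 13906, 11468 and 11190 CPM with TVB-3166 (1.02, SE 0.24, adjusted p = 0.00445). All libraries of these 3 groups were above the highest day-7 library. COX3, whose protein is the other core subunit, rose by 1.67 (SE 0.46, adjusted p = 0.0247) with ND-646 and by 0.99 (SE 0.34, adjusted p = 0.0305) with TVB-3166. COX3 was at 2009, 611 and 885 CPM in day-7 cells and at 2958, 1983 and 2028 CPM in TVB-3166 cells, which overlapped.

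Of complex I, the proton-pumping subunits ND4 and ND5 rose in 5 of the 6 treated groups each, all but alisertib, and ND2 in 2. ND5 was at 1466, 583 and 678 CPM in day-7 cells, at 3568, 4612 and 4812 with ND-646 and at 3688, 2657 and 2829 with TVB-3166. Its log2 fold change was 2.24 (SE 0.36, adjusted p = 0.00231) with ND-646 and 1.75 (SE 0.29, adjusted p = 0.000455) with TVB-3166. ND4, measured at 6021, 2611 and 2621 CPM in day-7 cells, was higher by 1.82 (SE 0.35, adjusted p = 0.00548), by 1.32 (SE 0.29, adjusted p = 0.0027) and, with bleomycin, by 2.50 (SE 0.34, adjusted p = 0.000601). ND2 was at 1460, 402 and 531 CPM in day-7 cells and at 2726, 1536 and 1689 CPM with ND-646. These did not overlap, but ND2 did not pass the test with ND-646 (log2 fold change 1.30, SE 0.47, adjusted p = 0.0643) or with TVB-3166 (0.70, SE 0.40, adjusted p = 0.17), and it did with bleomycin (1.38, SE 0.46, adjusted p = 0.0361) and doxorubicin (1.09, SE 0.36, adjusted p = 0.0274). ND1 was higher by 1.85 (SE 0.46, adjusted p = 0.0159) with ND-646 and by 1.12 (SE 0.38, adjusted p = 0.0277) with TVB-3166.

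ND6, the only member read from the other strand, was at 132, 56.1 and 68.6 CPM in day-7 cells. It was at 453, 351 and 337 CPM with ND-646 (log2 fold change 2.14, SE 0.32, adjusted p = 0.00151), at 264, 184 and 212 CPM with TVB-3166 (1.36, SE 0.26, adjusted p = 0.00118) and at 623, 414 and 330 CPM with bleomycin (2.42, SE 0.33, adjusted p = 0.000613). All libraries of these 3 groups lay above the day-7 cells. RNAs without a poly(A) tail had few counts in the table, with RN7SK at 2.38 to 18.3 CPM, RN7SL2 at 1.04 to 7.06, RN7SL1 at 0.915 to 6.25, RMRP at 0.144 to 3.29 and RPPH1 at 0.14 to 2.20. None of these 5 passed the test in any comparison with day-7 cells. Without ND-646 replicate 1, 2 of them were called lower with ND-646, where 28.3% of genes were called lower. CYTB of complex III was higher by 1.46 (SE 0.42, adjusted p = 0.0299) with ND-646 and by 1.00 (SE 0.35, adjusted p = 0.0324) with TVB-3166. ATP6 of ATP synthase was higher by 1.77 (SE 0.43, adjusted p = 0.0148) and by 0.99 (SE 0.35, adjusted p = 0.0335).

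TVB-3166 cells held less of all 10 mRNAs than ND-646 cells, by 0.46 to 1.02 on the log2 scale with a median of -0.65, but edgeR called none of them at an adjusted p under 0.05 in the direct comparison. Only 0.198% of the 13662 genes tested were called lower and 0.52% higher there. Of the 10, 7 had an unadjusted p under 0.05 and DESeq2 called 4, where it called 2.28% of genes lower. COX2 differed most, by -1.02 (SE 0.28, 95% interval -1.58 to -0.47, adjusted p = 0.152), and ND6 came nearest to the threshold (-0.78, SE 0.18, adjusted p = 0.0967). Libraries of the same number deviated together in these groups (correlations of 0.411, 0.251 and 0.334), and with the number as a block 5 of 10 members were called lower in TVB-3166 cells (0.644% of genes). Without ND-646 replicate 1, whose TMM factor of 0.7852 was the lowest of the 24, 4 were called (5% of genes). With the study's thresholds of a fold change of at least 2 and an unadjusted p under 0.05, 1 was called lower, against 1.01% of genes.

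The mean of the lipogenesis inhibitors was set against the mean of the other 4 TIS inducers in a fit of all 24 libraries, and COX2 was the only member called. It was higher by 1.00 on the log2 scale (SE 0.27, adjusted p = 0.00412), with means of 6070 CPM over 6 libraries and 3384 CPM over 12. The groups overlapped: the bleomycin libraries, at 5203 to 8955 CPM, all lay above the TVB-3166 libraries and overlapped the ND-646 libraries. In this fit 26.3% of 14078 genes were called higher and 24.7% lower. Its p-values measure the spread of libraries within groups and not the spread between agents of a kind. The other 9 members differed by 0.03 (COX1, SE 0.29) to 0.69 (ATP6, SE 0.33). With total counts in place of TMM factors 2 of the 10 turned negative, at a median of all genes of -0.13. The call of COX2 held in all 18 fits that left out 1 treated library. Under the study's fold threshold no member was called, where 2.28% of genes were called higher. With those thresholds 2 members were higher with ND-646 (11.4% of genes) and 3 with bleomycin (11.5%) than in day-0 cells. There 0 were higher with TVB-3166 (10.9%), alisertib (6.47%), doxorubicin (10%) and palbociclib (10.5%). Against day-7 cells 10 were higher with ND-646 (8.74%), 7 with TVB-3166 (7.24%), 10 with bleomycin (8.49%) and 9 with doxorubicin (7%). With palbociclib 1 was higher than in day-7 cells (6.51%) and with alisertib 0 (2.54%). In a test for any difference among the 8 groups, 6 of 10 members were called (COX1, COX2, ATP6, ND4, ND5 and ND6), fewer than the 81.6% of all 14078 genes that were called.

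The mRNAs did not keep fixed proportions to each other. Each member was therefore expressed as a percentage of the counts of all 10, a ratio within a library that no scaling between libraries touches. This view was chosen after the values had been seen and is given without a test. COX2 made up 4.98% to 7.11% of the members' counts in the 6 untreated libraries. It made up 16.5%, 11.8% and 12.5% with ND-646, 10.49%, 10.55% and 10.93% with TVB-3166, 8.80%, 9.002% and 8.44% with bleomycin and 5.52%, 6.48% and 5.72% with doxorubicin. With alisertib it made up 6.66%, 7.68% and 7.24%, and with palbociclib 7.30%, 8.77% and 8.13%. In 14 of 18 treated libraries COX2 lay above all untreated ones. The 6 libraries of the lipogenesis inhibitors thus held the highest 6 values of all 24. ND5 lay above all untreated libraries (5.12% to 5.98%) in 17 of 18 treated libraries, with ND-646 replicate 1 at 4.98% the exception. ND4 did so in 14 of 18, and reached 32.0%, 32.0% and 28.4% with palbociclib. COX1 made up 43.8%, 44.7% and 44.5% with bleomycin, above the 32.9% to 41.005% of the untreated libraries.

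In these percentages ND2, COX3, ATP6 and CYTB moved the other way. The percentages share 1 total, so that some must be lower where others are higher. The log2 fold changes of these mRNAs against day-7 cells were positive in all 6 treatments. ND2 made up 3.74% to 6.75% of the members' counts in untreated libraries and 1.90% to 4.09% in treated ones, with 13 of 18 treated libraries below all untreated ones. COX3 was below all untreated libraries in 13 of 18, ATP6 in 12 and CYTB in 10, and none of these 4 was above them in any treated library. The 5 members with an incomplete stop codon in the DNA, shown above for ND1, ND2 and COX3, had lower median log2 fold changes against day-7 cells than the 5 with a full last codon in all 6 treatments, for example 1.67 against 2.14 with ND-646, 1.00 against 1.36 with TVB-3166 and 1.42 against 2.47 with bleomycin. The ranges overlapped in each treatment, and ND4, which ends in a single left-over base, was among the members that rose most.

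**Figure D3:**
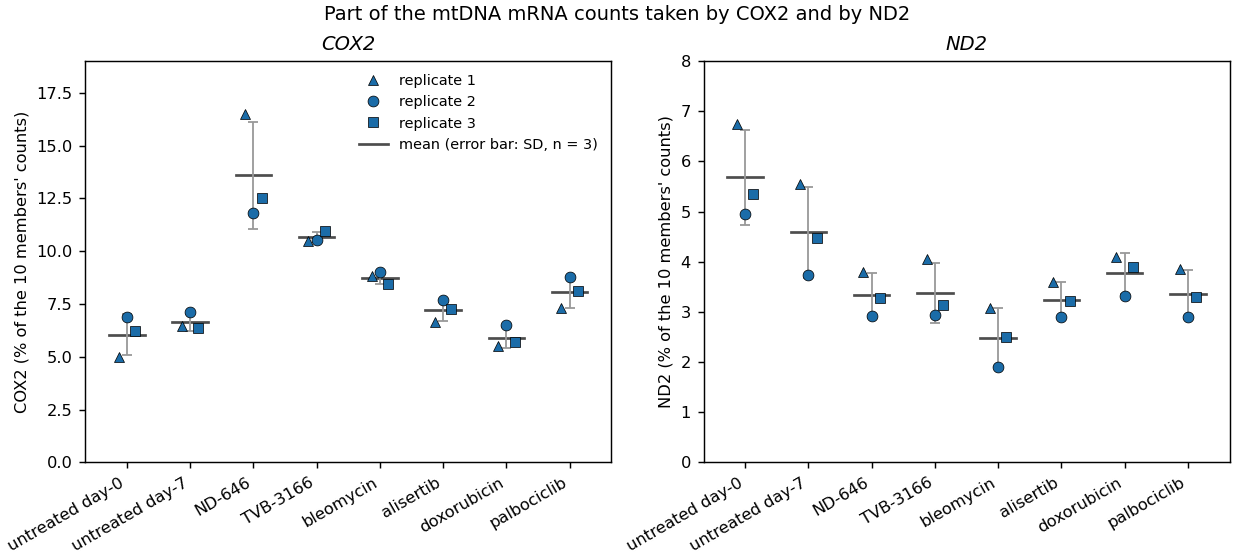
The percentage of the counts of the 10 members that came from COX2 (left) and from ND2 (right) is plotted for each library (triangles, replicate 1; circles, replicate 2; squares, replicate 3), with the mean and SD of 3 libraries. COX2 reaches 16.5% in ND-646 replicate 1 and is above 10% in all libraries of the lipogenesis inhibitors. ND2 makes up 3.74% to 6.75% in untreated libraries and 1.90% to 4.09% in treated ones.

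Other genes of mitochondrial DNA, of which ATP8 and ND4L overlap the members ATP6 and ND4, moved with the members. Of the 5 (ND3, ND4L, ATP8, RNR1 and RNR2), 4 rose against day-7 cells with ND-646, 4 with TVB-3166, 5 with bleomycin, 4 with doxorubicin, 2 with palbociclib and 0 with alisertib, and none fell. The shares of all genes called higher were 17.2%, 25.4%, 22.4%, 21.9%, 22% and 9.55% in that order. RNR2, the large ribosomal RNA, was at 2677, 1442 and 1245 CPM in day-7 cells and at 12753, 5679 and 6074 CPM with ND-646 (log2 fold change 2.18, SE 0.41, adjusted p = 0.00464). ND-646 replicate 1 held 21.2 rRNA counts for each 100 member counts, and the other ND-646 libraries 12.9 and 14.0. The nuclear copy MTRNR2L2 had 1 to 12 counts per library, so reads on it were few beside those on RNR2. It was the only one of 16 listed nuclear copies in the table, and was called higher with the lipogenesis inhibitors than with the other inducers (1.43, SE 0.35, adjusted p = 0.00157) at these counts.

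Nuclear-encoded partners of the same complexes were called lower in many cases. Against day-7 cells, 34 of 37 nuclear-encoded subunits of complex I fell with doxorubicin, as did 8 of 9 of complex III, 11 of 11 of complex IV and 16 of 16 of ATP synthase, and none rose. Their median log2 fold changes were -0.51, -0.50, -0.48 and -0.61, beside 1.40 for the 10 mitochondrial mRNAs and 0.00 for all genes. With palbociclib 34 of 37, 6 of 9, 10 of 11 and 16 of 16 fell, and with bleomycin 26, 7, 6 and 15. With alisertib 19, 6, 6 and 12 fell, and with TVB-3166 20, 5, 2 and 10. No subunit of these lists rose in any of these 5 comparisons. The shares of all genes called lower were 21.5% with doxorubicin, 22.9% with palbociclib, 23.2% with bleomycin, 9.49% with alisertib and 26.1% with TVB-3166, and the 2 of 11 complex IV subunits with TVB-3166 were below that share. ATP5MC1, a subunit of the rotating c-ring of ATP synthase, was lower by 1.03 (SE 0.11, adjusted p = 1.62e-05) with doxorubicin, by 1.32 (SE 0.16, adjusted p = 0.00035) with bleomycin and by 1.00 (SE 0.10, adjusted p = 1.6e-05) with TVB-3166. CYC1, the cytochrome c1 of complex III, fell by 0.86 (SE 0.10, adjusted p = 3.15e-05) with doxorubicin, and COX8A of complex IV fell by 0.86 (SE 0.11, adjusted p = 0.000123) with palbociclib.

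In ND-646 cells the count of nuclear-encoded subunits that fell turned on 1 library. With all 3 libraries 2 of 37, 2 of 9, 0 of 11 and 3 of 16 fell, in the order of complexes I, III, IV and ATP synthase, and none rose, where 17.1% of genes were called lower. Without ND-646 replicate 1, the library with the TMM factor of 0.7852, 32, 7, 9 and 13 fell and 1 subunit of complex IV rose, where 28.3% of genes were called lower. UQCRC2, a core protein of complex III, fell with all 3 libraries (by 1.14, SE 0.12, adjusted p = 0.000262), and so did ATP5MC1 (by 1.17, SE 0.23, adjusted p = 0.00618). Against the other TIS inducers, 18 of 37, 3 of 9, 8 of 11 and 5 of 16 nuclear-encoded subunits were higher with the lipogenesis inhibitors and 0, 1, 0 and 0 lower. Of all genes 26.3% were called higher and 24.7% lower there. Without ND-646 replicate 1 the counts of subunits became 5, 1, 6 and 4 higher and 2, 2, 0 and 1 lower. For alisertib, leaving out every library numbered 1 took the falls in complexes I, III and IV to 9, 4 and 3, with 11 in ATP synthase, and leaving out replicate 1 of the day-7 cells to 13, 4 and 3, with 11. For doxorubicin, without the libraries numbered 1, 23, 7, 7 and 12 fell.

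**Figure D4:**
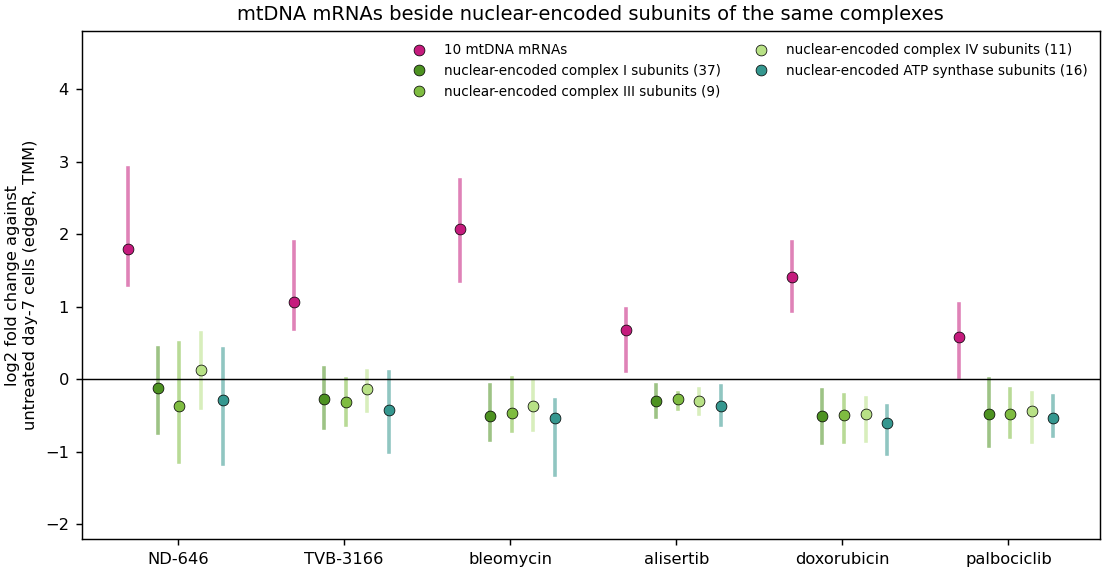
The vertical axis shows log2 fold changes against untreated day-7 cells (edgeR, TMM) for the 10 mitochondrial mRNAs (magenta) and for nuclear-encoded subunits of complexes I, III and IV and of ATP synthase (greens), with dots for the median and bars for the range over genes. With doxorubicin the median of the mitochondrial mRNAs is 1.40, and those of the nuclear-encoded lists lie between -0.61 and -0.48.

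Nuclear genes that make and handle the mitochondrial mRNAs were counted against the shares of all genes called lower, which were 17.1%, 26.1%, 23.2%, 9.49%, 21.5% and 22.9% for the treatments in the order in which they are introduced above. TFAM, which binds mitochondrial DNA and starts its transcription, fell against day-7 cells by 0.72 (SE 0.16, adjusted p = 0.0092) with ND-646, by 0.61 (SE 0.09, adjusted p = 0.000307) with TVB-3166, by 0.61 (SE 0.12, adjusted p = 0.00334) with bleomycin and by 0.28 (SE 0.08, adjusted p = 0.0169) with palbociclib. POLRMT fell with TVB-3166 (by 0.36, SE 0.11, adjusted p = 0.0146) and passed the test in no other treatment. Of 19 genes of mitochondrial DNA transcription and maintenance, 4, 8, 8, 2, 5 and 4 fell and 0, 2, 1, 0, 1 and 3 rose, in that order, so that the counts with ND-646, alisertib, doxorubicin and palbociclib were near the share of all genes. Without ND-646 replicate 1, 12 of the 19 fell with ND-646.

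Of 21 genes of mitochondrial RNA processing and decay, 11, 14, 11, 6, 7 and 7 fell in the same order of treatments, and 1 rose, FASTKD5 with doxorubicin. The counts with doxorubicin and palbociclib were the nearest to the shares of all genes. LRPPRC fell with TVB-3166 (by 0.26, SE 0.08, adjusted p = 0.0192), where its partner SLIRP fell by 0.52 (SE 0.10, adjusted p = 0.00116), and SLIRP also fell with palbociclib (by 0.32, SE 0.10, adjusted p = 0.0257). PRORP, the catalytic subunit of mitochondrial RNase P, fell in all 6 treatments, from 0.37 (SE 0.07, adjusted p = 0.00678) with alisertib to 0.98 (SE 0.12, adjusted p = 0.000527) with ND-646. HSD17B10, another subunit of that enzyme, fell in all 6 as well. PNPT1, the mitochondrial polynucleotide phosphorylase, fell by 0.96 (SE 0.13, adjusted p = 0.001) with ND-646. Of 15 translation factors 4, 9, 6, 2, 3 and 5 fell, and 0, 0, 1, 0, 0 and 1 rose. Without ND-646 replicate 1, 14 of the 21 and 8 of the 15 fell with ND-646.

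Among 8 nuclear regulators of mitochondrial biogenesis found in the table, MYC fell by 1.12 (SE 0.18, adjusted p = 0.00207) with ND-646 and by 1.20 (SE 0.15, adjusted p = 6.47e-05) with TVB-3166. NRF1, a transcription factor of respiratory genes, rose by 0.85 (SE 0.20, adjusted p = 0.0115) and by 0.47 (SE 0.09, adjusted p = 0.00116) in these cells and fell by 0.48 (SE 0.09, adjusted p = 0.00175) with palbociclib and by 0.33 (SE 0.09, adjusted p = 0.0303) with alisertib. ESRRA, an orphan receptor of the same programme, rose by 0.62 (SE 0.13, adjusted p = 0.00701) with ND-646, by 0.27 (SE 0.07, adjusted p = 0.0071) with TVB-3166 and by 0.55 (SE 0.14, adjusted p = 0.01) with bleomycin. In all, 2, 2, 1, 0, 0 and 0 of the 8 rose and 1, 2, 0, 1, 0 and 3 fell. The shares of all genes called higher were 17.2%, 25.4%, 22.4%, 9.55%, 21.9% and 22% in that order, and those called lower are given above.

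Marker genes were measured beside these lists. Of the 10 SKBR3 markers, 2, 4, 1, 0, 0 and 1 rose against day-7 cells and 2, 3, 5, 2, 1 and 0 fell, in the same order of treatments. The shares of all genes called higher were 17.2%, 25.4%, 22.4%, 9.55%, 21.9% and 22% in that order. Those called lower were 17.1%, 26.1%, 23.2%, 9.49%, 21.5% and 22.9%. Over all 24 libraries COL1A1 ranged from 6.46 to 15.2 CPM and VWF from 0.0718 to 1.47 CPM. CD68, a lysosomal protein used as a macrophage marker, ranged from 3.68 to 56.4 CPM and rose by 3.06 with ND-646, 2.36 with TVB-3166, 2.93 with bleomycin, 0.83 with doxorubicin and 0.96 with palbociclib. Its part in the results was not tested, and the other 7 markers of other cell types were not among the rows.

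Over the 24 libraries, the genes outside the members whose log2 CPM was most like the mean of the 10 were ATP8 (Pearson r = 0.966), TRNS1 (0.944), ND4L (0.943), TRNY (0.942) and RNR2 (0.934), all encoded by mitochondrial DNA, among 9191 genes with a mean of at least 10 CPM. The 4 least like it were DNAJA3 (r = -0.91), PMM2 (-0.881), RCC2 (-0.862) and PDK1 (-0.862). ATP8 and ND4L overlap the members ATP6 and ND4, so their counts are not independent of the members. All points share their library and its depth, so these are descriptions. Between members r ran from 0.792 for COX2 with ND2 to 0.991 for COX3 with ATP6.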

How the data were processed

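RNA-seq of SKBR3 cells was analysed from the read counts per gene that the authors deposited in 1 table of 14493 genes and 24 libraries. The authors aligned reads to GRCh37 with HISAT2 and assembled and counted them with StringTie. Every row and library has at least 1 count, so genes at 0 in some library are not among the rows. The labels name a poly(A)-selecting stranded kit and the study's methods a stranded total RNA kit, and which was used was not settled here. Library totals ran from 29405121 to 44316330 counts.

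Groups followed the sample labels, with 3 libraries each. Each pair of groups was fitted on the whole table with edgeR 4.0.16 (R 4.3.3, filterByExpr, TMM factors, 2-sided quasi-likelihood test), and the lipogenesis inhibitors against the other TIS inducers in 1 fit of 24 libraries. A gene was called at a Benjamini-Hochberg adjusted p under 0.05 over all genes tested. The SE is the log2 fold change divided by the square root of F, and CPM are counts scaled to a common library total after TMM. DESeq2 1.42.0 was also used, as an alternative test. The scripts were tested on counts simulated for ND-646 against day-7 cells, with 200 of 13634 genes changed. With edgeR 146 were recovered, 93 of them 4-fold and 53 of them 2-fold changes, and 9 calls were false. With DESeq2 167 were recovered, 96 and 71 of these kinds, and 36 calls were false. Comparisons with untreated day-7 cells, a listed alternative to day-0 cells, were given their own fits and alternatives after the day-0 values had been seen.

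The members and gene lists were chosen with earlier results of these data known. Named genes were the 10 members, up to 3 genes per list, comparison and direction with the largest changes among those called without overlap of libraries, POLRMT, TFAM, LRPPRC, SLIRP and PPARGC1A (not among the rows), and the genes most and least like the members, of which 1 is not reported here. Genes of interest in other treatments and CD68 were named after their values had been seen. The labels do not say whether replicate numbers pair the samples, and the main fits used no pairing. Pairing was assumed for fits with a block only where all 3 same-numbered pairs had a correlation of deviations over 0.1. That held for TVB-3166 against ND-646 (0.411, 0.251 and 0.334). Against day-7 cells it held for bleomycin (0.166, 0.127 and 0.127), alisertib (0.16, 0.229 and 0.114) and doxorubicin (0.21, 0.102 and 0.146). ND-646 (0.187, 0.174 and 0.092) and palbociclib (0.217, 0.259 and 0.0573) against day-7 cells fell short of that cutoff. Sequences and positions were read from the GRCh37 assembly with GENCODE annotation lifted to it.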

Additional observations from a re-analysis of the deposited data

Results flagged for a closer look

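COX2 was higher in the mean of the lipogenesis inhibitors than in the mean of the other TIS inducers by 1.00 on the log2 scale (edgeR quasi-likelihood test, adjusted p = 0.00412). The value ran from 0.81 to 1.08 when 1 treated library was left out. The p-value measures the spread of libraries within groups and not the spread between agents of a kind. All bleomycin libraries lay above all TVB-3166 libraries and overlapped the ND-646 libraries. What makes COX2 differ was not tested.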

How the results depend on the processing

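Of the alternative counts and shares, 490 stayed within 1.5 times or 1 SD of the reported value and 71 did not. For the 45 called values of single members, 640 alternative values kept direction and call, 95 kept direction only and 0 reversed. Over all 10 members, called or not, the sign changed in 163 of 1180 alternative values against day-0 cells, in 18 of 960 against day-7 cells and in 8 of 440 between treated groups. The causes were not tested. Alternatives for comparisons with day-7 cells, and leaving out every library numbered 1, were chosen after seeing the data. Counts of called members below that stand without the share of all genes called in the same fit show only how far a count moved. They are not results about the members.

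Leaving out 1 library at a time moved the members called higher against day-0 cells between 0 and 10 for ND-646, TVB-3166, bleomycin and doxorubicin, between 0 and 9 for alisertib and between 0 and 6 for palbociclib, and those called lower with palbociclib between 0 and 3. The upper ends came from leaving out day-0 replicate 1. Against day-7 cells the range was 5 to 10 for ND-646 and TVB-3166, 6 to 10 for bleomycin, 7 to 10 for doxorubicin, 0 to 10 for alisertib and 0 to 7 for palbociclib. For TVB-3166 against ND-646 it was 0 to 4. Shares ranged from 1.25% to 4.37% in day-0 cells, 1.19% to 1.98% in day-7 cells, 4.91% to 5.31% with ND-646, 3.32% to 3.87% with TVB-3166, 6.98% to 8.56% with bleomycin, 2.34% to 3.08% with alisertib, 4.38% to 5.16% with doxorubicin and 2.25% to 3.01% with palbociclib.

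With every library numbered 1 left out, 10 members were called higher against day-0 cells with ND-646, TVB-3166, bleomycin and doxorubicin and 6 with alisertib and palbociclib. Against day-7 cells 9 were called with alisertib and 5 with palbociclib, 10 were called lower with TVB-3166 than with ND-646, and 4 higher with the lipogenesis inhibitors than with the other inducers. With day-7 cells in place of day-0 cells, 9, 9, 10, 10 and 3 were called with ND-646, TVB-3166, bleomycin, doxorubicin and palbociclib.

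With DESeq2, 1 member was called with bleomycin against day-0 cells, 4 in TVB-3166 against ND-646, and 5, 6 and 0 against day-7 cells with TVB-3166, doxorubicin and palbociclib. In 1 fit of all 24 libraries, 2 were called with ND-646 and 5 with bleomycin against day-0 cells, and 4, 6 and 0 against day-7 cells in that order of treatments. With the fold threshold of 2 and unadjusted p, 2 were called with ND-646 against day-0 cells, 1 lower in TVB-3166 against ND-646, 0 higher with the lipogenesis inhibitors and 1 with palbociclib against day-7 cells. Without a filter on low counts 1 was called with bleomycin against day-0 cells. With only the 18 treated libraries 4 were called higher with the lipogenesis inhibitors. With total counts 1 was called with alisertib against day-7 cells.

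With the replicate number as a block, 5 members were called lower in TVB-3166 against ND-646 and 9 higher with alisertib against day-7 cells. For bleomycin and doxorubicin against day-7 cells no call count changed by over 1.5 times. Pairing by number was assumed in these comparisons and is not given in the labels. In the other comparisons it was not assumed. There the block gave 3, 4, 6 and 1 calls with ND-646, TVB-3166, bleomycin and doxorubicin against day-0 cells, 5 lower in day-7 against day-0 cells, 6 with palbociclib against day-7 cells, 3 higher with the lipogenesis inhibitors and 10 for any difference among the 8 groups.

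Scaling by total counts in place of TMM moved the share of higher among all genes called from 50.5% to 39% (ND-646), 47.5% to 69.6% (alisertib), 48.9% to 61% (doxorubicin), 48.9% to 61.9% (palbociclib) and 66.2% to 87.5% (day-7 cells) against day-0 cells, from 50.2% to 29.4% (ND-646), 49.3% to 38.5% (TVB-3166) and 49.1% to 34.4% (bleomycin) against day-7 cells, from 72.4% to 89.7% for TVB-3166 against ND-646 and from 51.6% to 29.8% for the lipogenesis inhibitors against the other inducers. With ND-646 against day-7 cells it moved the median of all genes to -0.20 and that of the members from 1.79 to 1.57.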
